A study of Mus musculus with 564 samples.

Results

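The 4 MET inhibitors of the screen, AMG208, MK2461, SGX523 and Capmatinib, were examined through the histone mark H3K27ac in mouse bone marrow-derived macrophages (BMDMs). They were chosen by name, as every library whose label starts with 1 of these 4 compound names, which gave 37 of 564 libraries, 9 each for AMG208, MK2461 and SGX523 and 10 for Capmatinib. The series holds 58 clinical kinase inhibitors in all, with 546 libraries, and 18 libraries of the solvent DMSO. The cells came from wild type male C57/BL6 mice and were grown in culture from bone marrow into macrophages, so no gene was altered in any group. Each culture received 1 inhibitor, or DMSO, for 1 h, and was then left unstimulated (UT) or stimulated with LPS or IL-4 at 10 ng/mL for 30 min, 1 h, 2 h or 4 h. The UT libraries carry 0h in their titles, while their treatment label gives 4h UT. Every MET inhibitor was represented by 1 time course, with 1 library per condition, except for 2 UT libraries of Capmatinib and 2 libraries of SGX523 at 4 h of LPS. No SGX523 library at 2 h of LPS was analysed here. DMSO had 2 libraries per condition.

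MET is a receptor tyrosine kinase of the cell surface. Its ligand, hepatocyte growth factor (HGF), makes receptors pair and phosphorylate each other, and adaptors such as GAB1 and GRB2 then carry the signal to the RAS-ERK, PI3K and STAT3 pathways. HGF is made mainly by cells of connective tissue and by some macrophages, and MET is best known from epithelial cells, liver regeneration and invasive tumours. The related receptor MST1R (RON) binds macrophage-stimulating protein, the product of Mst1. LPS is a bacterial product sensed by TLR4, which acts through MYD88 and the IRAK kinases on NF-kB and, by way of interferon beta, on interferon response genes. IL-4 acts through STAT6 and leads macrophages to alternative activation. H3K27ac marks active promoters and enhancers, together named cis-regulatory elements (CREs).

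Capmatinib is a drug for lung tumours with an altered MET gene, and the other compounds are research or clinical candidate inhibitors of MET. The study set each dose by the binding of the compound to an intended target in a lysate assay. That target was MET for AMG208 and Capmatinib, IRAK4 for MK2461 and the quinone reductase NQO2 for SGX523. The doses therefore differed between the compounds. Their values are given side by side, and 0 pairs of MET inhibitors were compared by a test.

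The measurements are normalized read numbers in 59190 CREs of mm10, of which 11393 (19.2%) had their centre within 1 kb of a transcription start and are called promoters here. Values were compared on the scale log2(value + 5) in linear models fitted with limma over all CREs whose mean was 10 or more. Reads per library, estimated from the step between neighbouring values, ran from 548116 to 1228697 for AMG208, 836982 to 1998190 for MK2461, 537254 to 5718679 for SGX523 and 1979658 to 4785101 for Capmatinib, against 2345455 to 6269545 for DMSO. A single read was then worth 5.45 to 12.0 normalized reads for AMG208, 3.46 to 8.35 for MK2461, 1.08 to 12.9 for SGX523 and 1.29 to 3.30 for Capmatinib, and differences of that size in a single library are those of 1 read. The contrast of a library, the median over the strongest of 10 equal groups of CREs divided by that over the weakest, was 5.68 to 47.0 over the MET inhibitors and 53.0 to 133.7 over DMSO, with no overlap. Of the SGX523 libraries, 2 stood apart. That of IL-4 30 min had the lowest contrast and a total of 9575577 normalized reads, and that of IL-4 2 h had the fewest reads and 2365 CREs at 0. Libraries of the same condition correlated at r = 0.933 for the 2 Capmatinib UT libraries, 0.88 for the 2 SGX523 LPS libraries, and 0.959 to 0.981 for the DMSO pairs. No label says whether these pairs came from separate cultures.

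The macrophage label was checked at promoters of marker genes. The summed level over 8 macrophage markers with a promoter CRE, of 12 on the list, was 2938 to 5416 in the MET inhibitor libraries and 4228 to 6167 in DMSO. Sums of the other lists cover 2 or 3 genes, so the median level of a gene is given as well. Under the MET inhibitors it was 327.5 to 419 for macrophage markers and 176 to 218 for neutrophil and progenitor genes. It was 66.5 to 90 for T and NK cell, 11.5 to 34 for B cell, and 16 to 34 for fibroblast and epithelial markers. Over 2 T and NK cell markers the sum was 87 to 229 (DMSO 103 to 196), over 3 B cell markers 37 to 213 (DMSO 20 to 99), and over 3 fibroblast and epithelial markers 32 to 162 (DMSO 7 to 136). The sum over 2 neutrophil and progenitor genes, S100a8 and Csf3r, was 256 to 717 (DMSO 326 to 871). The defining genes Cd3e, Ly6g, Mpo and Epcam had no promoter CRE in the table, and neither had the macrophage genes Cd68, Csf1r, Adgre1 and Cebpb. A promoter CRE had to lie within 1 kb of a start and have it as the nearest, so nothing is read from such absences. In such bulk samples, fewer cells of a type and less signal per cell cannot be told apart.

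Under the 4 MET inhibitors, H3K27ac at the Met promoter rose after LPS, and that at the Hgf promoter fell. The Met promoter CRE (chr6:17462721-17464718, mm10) lies over the transcription start of the receptor gene. In UT libraries its values were 44 for AMG208, 25 for MK2461, 39 for SGX523 and 26 and 38 for Capmatinib. After 4 h of LPS, Met stood at 126, 80, 91 and 108 (2 libraries), and 108 in the same order of inhibitors. All LPS libraries of the MET inhibitors lay between 58 and 134, above the UT libraries at 25 to 44. The contrast of the libraries also differed between UT and LPS. It was 47.0 in UT and 9.375 to 35.0 after LPS for SGX523, and 38.2 and 24.27 in UT and 13.91 to 20.5 after LPS for Capmatinib. For AMG208 it was 15.95 in UT and 7.057 to 19.75 after LPS, and for MK2461 17.74 and 12.23 to 25.21. Its part in the responses to LPS was not tested.

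At 30 min of LPS, Met promoter values were 72 for AMG208, 98 for MK2461, 134 for SGX523 and 58 for Capmatinib. At 1 h they were 71, 75, 110 and 95, and at 2 h 71, 63 and 96, without SGX523. The order of the inhibitors thus changed from time to time. The mean was 35.0 ± 8.29 normalized reads (SD, n = 4 inhibitors) in UT, 90.5 ± 33.4 at 30 min, 87.8 ± 18.2 at 1 h, 76.7 ± 17.2 at 2 h (n = 3) and 103 ± 19.1 at 4 h. To test the response, the 37 MET inhibitor libraries were fitted with 1 term for each stimulus and time and 1 for each inhibitor. The level of each inhibitor was thus taken out. The spread in that fit is how far the 4 inhibitors, of different dose and column block, differed in their responses. Libraries of the same inhibitor and condition entered singly. This spread does not describe any 1 of the inhibitors. The log2 difference from UT was 1.20 (SE 0.32, adjusted p = 0.00335) at 30 min, 1.21 (SE 0.32, adjusted p = 0.00289) at 1 h and 1.36 (SE 0.31, adjusted p = 0.000282) at 4 h, which passed the limits of adjusted p under 0.01 and a log2 difference over 1. At 2 h the difference of 1.12 had an adjusted p of 0.0105 and was not called. Among all CREs tested, 12.0% passed at 30 min of LPS, 14.4% at 1 h, 19.4% at 2 h and 17.8% at 4 h, in either direction. The 30 min call was lost under quantile normalization (1.03, adjusted p = 0.0104) and when MK2461, SGX523 or Capmatinib was left out (adjusted p = 0.0199, 0.0401 and 0.0193). The 1 h call was lost without SGX523 (adjusted p = 0.0213) and without Capmatinib (adjusted p = 0.0527), and the 4 h call without Capmatinib (log2 difference 1.33, adjusted p = 0.0102).

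IL-4 gave no call at the Met promoter. At 30 min of IL-4 Met stood at 80 for AMG208, 25 for MK2461, 119 for SGX523 and 44 for Capmatinib, and at 4 h at 72, 64, 54 and 31. The IL-4 libraries spanned 25 to 119 and overlapped those of UT and of LPS. The log2 differences from UT were 0.66, 0.51, 0.38 and 0.55 over the 4 times, with adjusted p from 0.205 to 0.538. The mean of the LPS times exceeded that of the IL-4 times by 0.70 (SE 0.17, adjusted p = 0.000459). In DMSO the Met promoter stood at 11 and 19 in UT, 86 and 79 at 30 min of LPS, 110 and 114 at 1 h, 47 and 63 at 2 h and 54 and 74 at 4 h. The UT values of Met in DMSO lay below those of every MET inhibitor.

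An upstream CRE (chr6:17407469-17410874), intergenic and 54629 bp from the Met start, was higher after LPS by 2.63 (SE 0.36, adjusted p = 6.19e-08) on the log2 scale at 30 min and by 2.46 (adjusted p = 2.27e-07) at 1 h. The differences were 0.64 (adjusted p = 0.239) at 2 h and 1.23 (adjusted p = 0.00397) at 4 h, so the early times stood highest. After IL-4 its differences from UT lay between -0.33 and 0.19, with no call. Under Capmatinib this Met CRE stood at 302, 324, 96 and 164 at 30 min, 1 h, 2 h and 4 h of LPS, and the 31 libraries of other inhibitors beside Capmatinib spanned 32 to 328 with a median of 167. Of the other CREs assigned to Met by the nearest start, an intronic CRE (chr6:17519979-17521709) rose at 30 min of LPS by 1.86 (adjusted p = 0.00233) and a downstream CRE (chr6:17589047-17590668) at 4 h by 1.22 (adjusted p = 0.00236). The 6 others gave no call at any LPS time, with log2 differences between -0.44 and 1.55.

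The Hgf promoter CRE (chr5:16551919-16554275) has its centre 453 bp from the start of the ligand gene. UT libraries held 175 for AMG208, 380 for MK2461, 226 for SGX523 and 261 and 208 for Capmatinib. At 4 h of LPS Hgf stood at 87, 80, 70 and 78 (2 libraries), and 97. Every MET inhibitor was thus lower at 4 h than in UT. Hgf means were 254 ± 88.1 in UT, 140 ± 49.4 at 30 min of LPS, 102 ± 14.5 at 1 h, 70.7 ± 24.6 at 2 h (n = 3) and 84.5 ± 9.88 at 4 h. The log2 differences from UT were -1.20 (SE 0.23, adjusted p = 4.51e-05) at 1 h, -1.77 (SE 0.26, adjusted p = 8.58e-08) at 2 h and -1.46 (SE 0.22, adjusted p = 2.48e-07) at 4 h, all called as lower. At 30 min the difference of -0.81 (adjusted p = 0.00658) did not reach the size limit. These 3 calls at Hgf were kept when any 1 of the 4 inhibitors was left out.

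After IL-4 the Hgf promoter averaged 248 at 30 min, 159 at 1 h, 132 at 2 h and 160 at 4 h. The difference nearest to a call was that at 2 h, of -0.86 (adjusted p = 0.00663), and it did not reach the size limit. LPS times lay below IL-4 times by 0.82 on the log2 scale (a difference of -0.82, SE 0.12, adjusted p = 8.94e-08). DMSO libraries held 272 and 292 in UT and 125 and 123 at 4 h of LPS at Hgf, above the 70 to 97 of the MET inhibitors at that time. The second Hgf CRE (chr5:16546789-16548471) had a mean of 32.6 over the 37 libraries and no call after LPS.

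**Figure D1:**
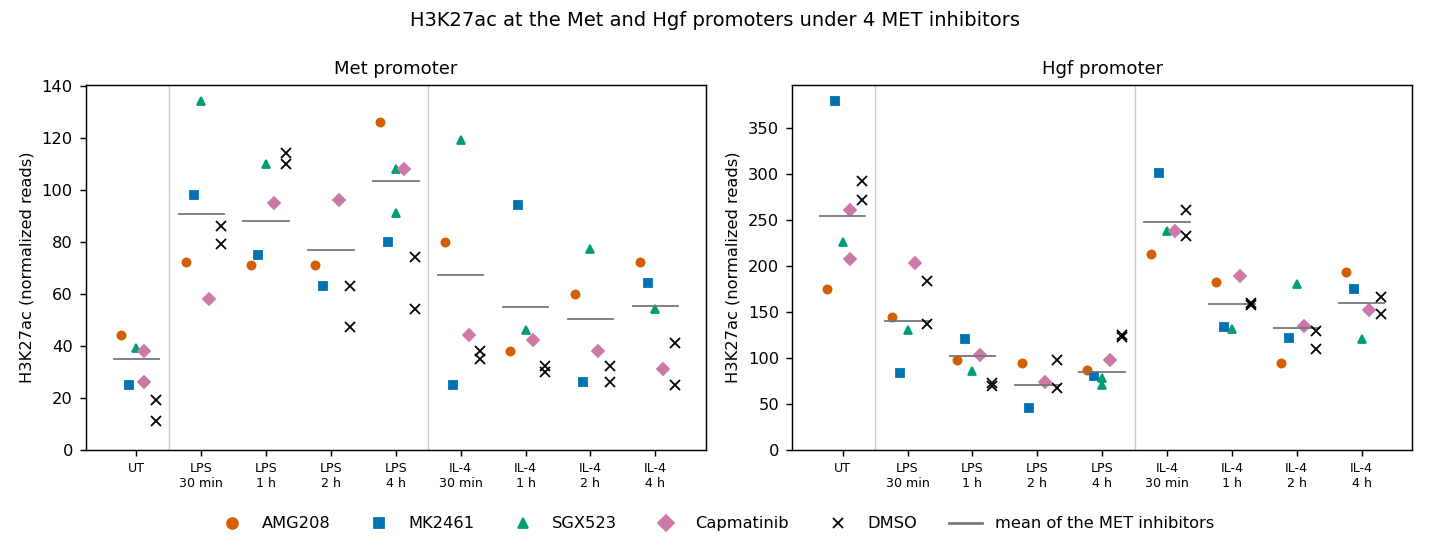
H3K27ac in normalized reads (vertical axis) at the promoters of Met (left) and Hgf (right) in UT and at each time of LPS and IL-4 (horizontal axis). Each coloured symbol is 1 library of a MET inhibitor, each cross 1 DMSO library, and each grey line the mean over the MET inhibitors. All LPS symbols of the Met panel lie at 58 to 134, above UT at 25 to 44, and the Hgf means go from 254 in UT to 70.7 at 2 h of LPS.

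The sequences just upstream of the starts of Met, Hgf and Nqo2 are shown because these promoters, of the targets MET and NQO2 and of the ligand HGF, had a called response to LPS. They are RefSeq sequences of GRCm38.p6, plus strand, which has the same coordinates as mm10. For Met only the bases outside annotated exons are given (chr6:17463707-17463799), for Hgf chr5:16553245-16553494 and for Nqo2 chr13:33964409-33964658. All are in lower case because none holds a match to the 5 motifs searched, which are spelled out further on.
Met: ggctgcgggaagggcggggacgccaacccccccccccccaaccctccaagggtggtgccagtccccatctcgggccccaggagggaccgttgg
Hgf: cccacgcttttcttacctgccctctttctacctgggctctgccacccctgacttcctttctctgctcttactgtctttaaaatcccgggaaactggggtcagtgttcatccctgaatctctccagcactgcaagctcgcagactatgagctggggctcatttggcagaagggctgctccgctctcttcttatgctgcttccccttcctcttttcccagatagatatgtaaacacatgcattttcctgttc
Nqo2: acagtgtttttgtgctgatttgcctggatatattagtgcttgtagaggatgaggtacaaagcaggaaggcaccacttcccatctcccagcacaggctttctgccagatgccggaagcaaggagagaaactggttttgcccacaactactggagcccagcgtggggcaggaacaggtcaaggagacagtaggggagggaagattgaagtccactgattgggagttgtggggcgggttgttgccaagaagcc

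Mst1, the ligand gene of MST1R, was not the nearest start of any CRE within 50 kb, so no CRE was assigned to it. Of the CREs assigned to Mst1r by the nearest start, the closest (chr9:107904077-107905723) lies 1973 bp away in intergenic sequence. In the MET inhibitor libraries it held 8 to 111 normalized reads and in DMSO 0 to 8. The highest value, 111, was that of SGX523 at 30 min of IL-4, the library with the lowest contrast. No time of LPS or IL-4 gave a call at Mst1r. Means were 32.1 ± 17.7 in UT, 31.0 ± 12.8 at 4 h of LPS and 26.0 ± 15.4 at 4 h of IL-4.

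MK2461 was dosed by its binding to IRAK4, the kinase that acts directly downstream of MYD88. At the Irak4 promoter (chr15:94542423-94545803) MK2461 held 268 in UT, 240, 172, 269 and 256 over the LPS times and 367, 314, 316 and 290 over the IL-4 times. The 37 libraries spanned 172 to 441, and no condition was called against UT. The largest difference at Irak4 was that of IL-4 at 2 h, 0.58 (adjusted p = 0.025), with a mean of 391 ± 51.5 against 263 ± 57.9 in UT. The DMSO libraries of UT held 336 and 390.

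SGX523 was dosed by its binding to NQO2. The Nqo2 promoter (chr13:33963749-33965680) held 219 for AMG208, 150 for MK2461, 233 for SGX523 and 188 in both libraries of Capmatinib in UT. At 30 min of LPS Nqo2 stood at 144, 83, 47 and 93, and SGX523 was the lowest. At 2 h the values were 200, 190 and 191, without SGX523, which lie within the UT range. The log2 difference from UT was -1.14 (SE 0.21, adjusted p = 2.99e-05) at 30 min, a fall that was no longer called without SGX523 (-0.81, adjusted p = 0.0093). It was -0.82 (adjusted p = 0.00202) at 1 h, -0.03 at 2 h and -0.57 (adjusted p = 0.0252) at 4 h, none of them called. IL-4 gave differences from -0.13 to 0.10 at Nqo2. DMSO libraries went from 276 and 263 in UT to 76 and 103 at 30 min of LPS.

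H3K27ac at the 2 control loci of the study was higher after their stimulus under the MET inhibitors. The study used qPCR at these loci to judge ChIP quality and remove failed samples before sequencing. A response there was therefore favoured by selection, and nothing further is read from it. The first is an intronic CRE labelled Fpr3 here, after a formyl peptide receptor gene. The study gives only its position, and which gene holds the intron was not determined. The second is a CRE upstream of Il1rl2, an IL-36 receptor gene. At the Fpr3 CRE (chr17:17898654-17902758) UT libraries held 93 to 168. At 4 h of LPS the values were 552 for AMG208, 1305 for MK2461, 781 and 750 for SGX523 and 907 for Capmatinib. All of these were below 1417 and 1217 in DMSO except that of MK2461, which lay between them. The log2 differences of Fpr3 from UT were 1.92, 2.17, 2.56 and 2.54 over the LPS times, all called. At the Il1rl2 CRE (chr1:40321234-40323610) UT libraries had a mean of 72.1 ± 23.1, and those of IL-4 204 ± 55.9, 232 ± 14.9, 305 ± 60.5 and 270 ± 51.2 over time. The log2 differences of Il1rl2 were 1.52, 1.74, 2.11 and 1.94, all called, the first of them not without Capmatinib (1.20, adjusted p = 0.018).

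**Figure D2:**
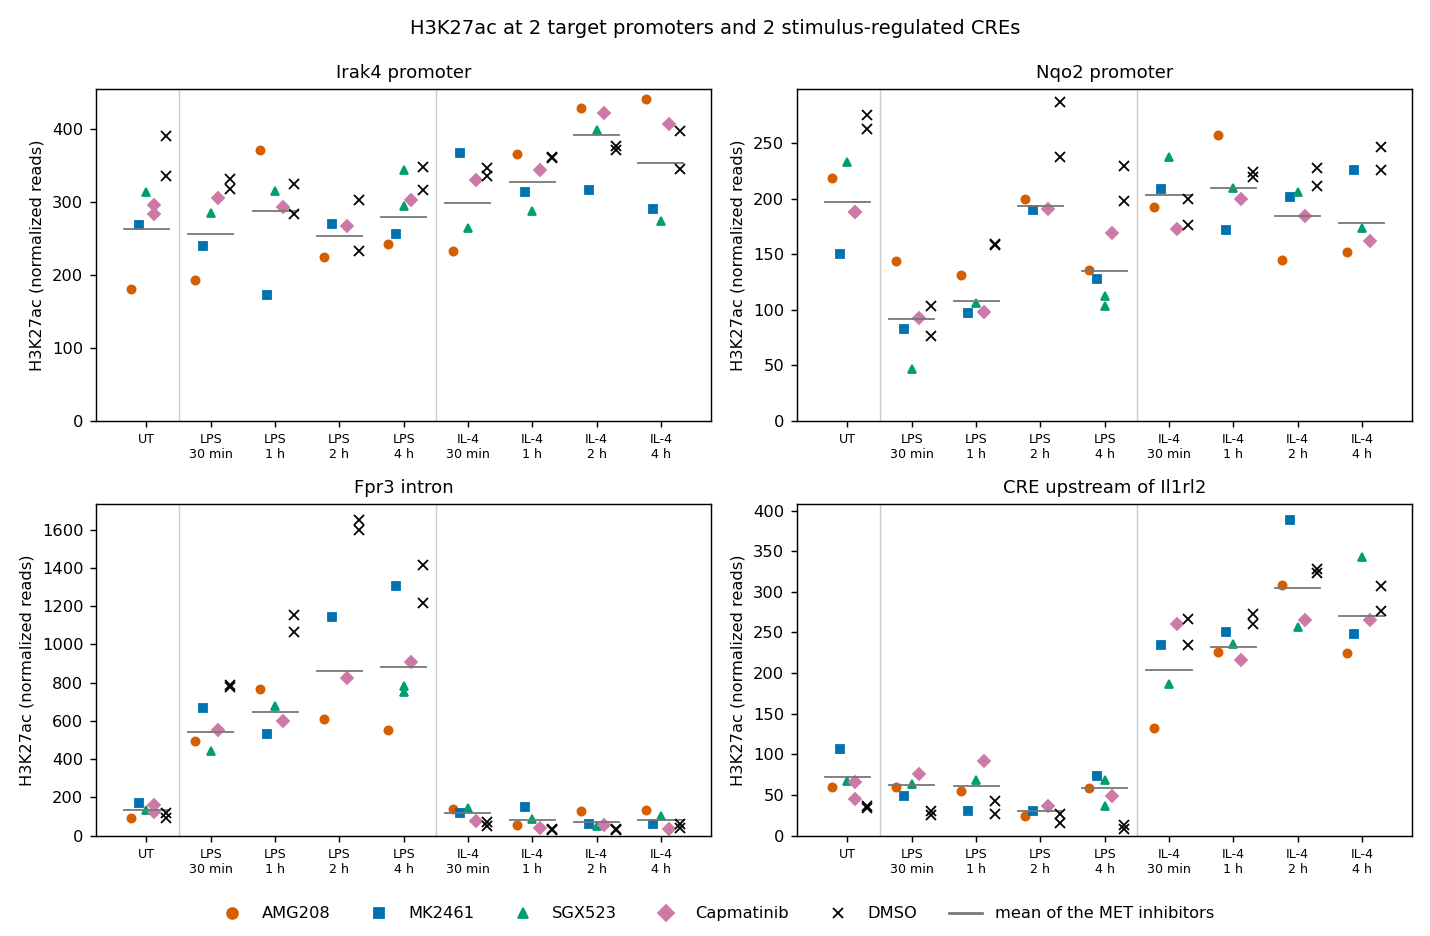
H3K27ac in normalized reads (vertical axes) at the Irak4 and Nqo2 promoters, the CRE labelled Fpr3 and the CRE upstream of Il1rl2. The horizontal axes give UT and each time of LPS and IL-4. Symbols are single libraries, coloured for the MET inhibitors and crosses for DMSO, and grey lines are means over the MET inhibitors. Irak4 stays between 172 and 441 in all MET inhibitor libraries, while Fpr3 goes from 134 in UT to 882 at 4 h of LPS.

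Of the 24 genes on a list of HGF and MET signalling, 16 had a promoter CRE. LPS raised the promoter of Met and, at 1 h, that of Hpn, a protease that activates HGF (1.04, SE 0.31, adjusted p = 0.00775), and lowered that of Hgf. That is 1 rise and 0 falls at 30 min, 2 and 1 at 1 h, 0 and 1 at 2 h, and 1 and 1 at 4 h, where 12.0%, 14.4%, 19.4% and 17.8% of all CREs passed. IL-4 gave 0 rises and 0 falls at each of the 4 times, where 4.2%, 4.07%, 6.34% and 5.36% of all CREs passed. The adaptor genes Gab1, Grb2, Sos1, Shc1, Crk and Crkl, the phosphatase gene Ptpn11, the ubiquitin ligase gene Cbl, Stat3 and the focal adhesion kinase gene Ptk2 had no call at any time. At 4 h of LPS the log2 differences of these promoters were -0.33 for Gab1, -0.06 for Grb2, 0.84 for Sos1, 0.82 for Stat3 and 0.20 for Ptk2. Plxnb2, a relative of MET, stood at -0.94 at 30 min of LPS and -0.41 at 4 h. The median over the 16 promoters was 0.00 at 30 min and -0.07 at 4 h of LPS.

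Genes named from the lists that follow were singled out after their values were seen. Over all CREs 5.96% rose and 6.09% fell at 30 min of LPS, 6.48% and 7.88% at 1 h, 8.61% and 10.8% at 2 h, and 9.01% and 8.83% at 4 h, and the counts of the lists are to be read against these shares. After IL-4 3.97%, 3.25%, 3.35% and 2.93% rose and 0.228%, 0.823%, 2.99% and 2.43% fell over the times. Of 23 promoters of TLR4, MYD88 and IRAK signalling, 2 rose and 2 fell at 30 min of LPS and 1 rose and 1 fell at 4 h, where 9.01% and 8.83% of all CREs did. Tab2, an adaptor of the kinase TAK1, rose by 2.02 at 30 min and 2.98 at 2 h, and Ikbkb, the gene of an IkB kinase, by 1.35 at 30 min. The promoter of the LPS receptor gene Tlr4 fell at every LPS time, by 1.05, 1.17, 1.29 and 1.06 on the log2 scale. None of the 23 was called after IL-4.

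Of 21 promoters of NQO2 and NRF2 redox genes, 1 rose and 4 fell at 30 min of LPS and 0 rose and 5 fell at 2 h, where 8.61% and 10.8% of all CREs did. Slc7a11, a subunit of the cystine importer, rose by 1.30 at 30 min. Hmox1 (heme oxygenase) had a difference of -1.37 at 2 h, Gclm (glutathione synthesis) -1.11 at 30 min and Taldo1 (pentose phosphate pathway) -1.50 at 30 min, all called as lower. The promoter of Maf stood at -2.06 (adjusted p = 2.27e-12) at 30 min, the lowest of the list. IL-4 lowered Hmox1 and Gsr (glutathione reductase) at 2 h, with -1.03 and -1.23.

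Of 10 promoters of receptor tyrosine kinase genes, 3 rose and 0 fell at 4 h of LPS, where 17.8% of all CREs were called, and 1 rose and 1 fell at 4 h of IL-4, where 5.36% were. Among the LPS rises were Met and Flt1, the gene of a VEGF receptor, Flt1 by 1.13. Flt1 rose more after IL-4, by 1.92, 2.08, 2.36 and 2.59 (SE 0.22, adjusted p = 2.21e-13) over the times. Mertk, a receptor for the uptake of dead cells, fell at 30 min and 1 h of LPS with -1.49 and -1.50, and Kdr fell at 4 h of IL-4 with -1.25.

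The 25 promoters of ERK immediate early genes, which respond to growth factor receptors, gave 5 rises and 2 falls at 30 min of LPS, 3 and 4 at 1 h, 0 and 6 at 2 h and 0 and 4 at 4 h, where 12.0%, 14.4%, 19.4% and 17.8% of all CREs were called in either direction. Maff rose by 2.14 and Egr2 by 1.48 at 30 min. Ccnd1 (cyclin D1), Etv5 and Dusp6, the gene of an ERK phosphatase, stood at -2.38, -2.23 and -1.96 at 2 h, with Myc at -1.51, all called as lower. After IL-4, Egr2 rose at every time by 1.28 to 1.49, and Fos, Dusp6, Spred2, Etv5 and Ccnd1 fell at 4 h, Spred2 with -1.53.

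The lists of the 2 stimuli held more calls. Of 20 promoters of NF-kB inflammatory genes, 10, 12, 10 and 8 rose at 30 min, 1 h, 2 h and 4 h of LPS and 0 fell. Nos2 (nitric oxide synthase) rose by 3.02, Traf1 by 2.77, Il6 by 2.49 and Tnfaip3 by 1.74 at 4 h. Of 25 promoters of interferon response genes, 3, 8, 22 and 21 rose over the LPS times and 0 fell. Ifnb1, the interferon beta gene, rose by 1.99 at 30 min and 2.55 at 1 h, before Mx1 and Ifit1, which were first called at 2 h and 1 h and stood at 2.25 and 2.18 at 4 h. Of 18 promoters of IL-4 alternative activation genes, 8, 11, 11 and 9 rose over the IL-4 times. Pdcd1lg2, a checkpoint ligand gene, rose by 2.88 at 4 h, the cytokine signal inhibitor Cish by 2.05 and Ccl24 by 1.64, and Arg1 (arginase) by 1.83 at 1 h, while Tgm2 fell at 4 h with -1.28. LPS lowered the mannose receptor gene Mrc1 (-1.40) and the lectin genes Clec10a (-2.12) and Mgl2 (-1.41) of the same list at 4 h.

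Of 18 promoters of invasion and matrix genes, a programme that MET drives in tumour cells, 1 rose and 1 fell at 30 min of LPS, and 1 rose and 4 fell at 4 h, where 12.0% and 17.8% of all CREs were called. Mmp14, a membrane-bound matrix protease, rose by 1.91 at 30 min and 2.63 at 4 h. Plau (urokinase), Timp2, Vim and Vegfa fell at 4 h, with -1.28, -1.80, -1.29 and -1.25. After IL-4 the integrin gene Itgb3 rose by 1.68 at 30 min and 1.23 at 4 h, and Plaur, the urokinase receptor gene, fell at 4 h with -1.37. Of the 8 macrophage marker promoters, 5 fell at 30 min of LPS and 2 at 4 h, when Cebpa stood at -2.13. The part of that change in the other lists was not tested.

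**Figure D3:**
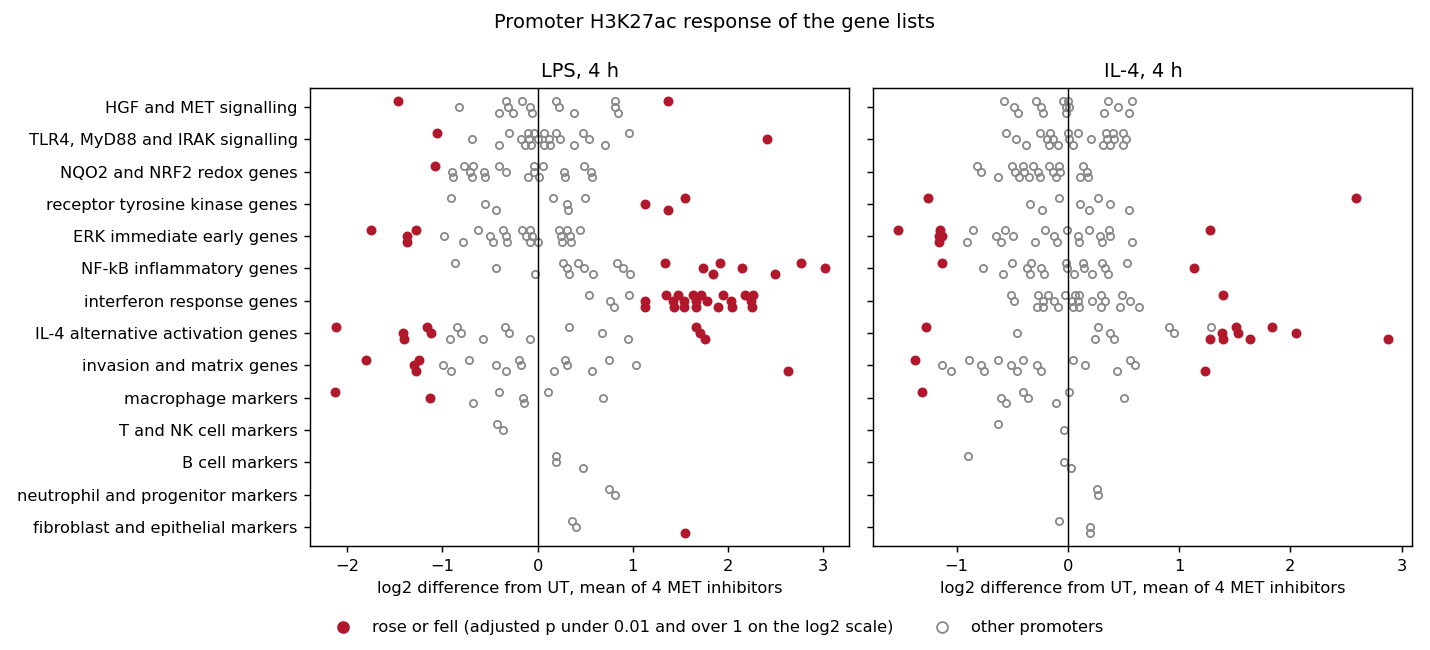
Log2 difference from UT at 4 h of LPS (left) and IL-4 (right), fitted over the 4 MET inhibitors (horizontal axis), for each promoter of the gene lists (vertical axis). Filled red points rose or fell by the limits of adjusted p under 0.01 and over 1 on the log2 scale, and open grey points did not. In the left panel 21 of 25 interferon response promoters are red and to the right of 0, and on the line of HGF and MET signalling the red points are Met at 1.36 and Hgf at -1.46.

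Over the whole table the 4 inhibitors left a broad LPS response. Of 59157 CREs tested, 3524 rose and 3602 fell at 30 min of LPS, 3833 and 4661 at 1 h, 5096 and 6392 at 2 h, and 5330 and 5226 at 4 h. IL-4 gave 2351 rises and 135 falls at 30 min, 1921 and 487 at 1 h, 1984 and 1768 at 2 h, and 1733 and 1436 at 4 h. Averaged over the times, 9675 CREs (16.4%) differed between the stimuli, 4355 higher and 5320 lower after LPS. Of the CREs called at 4 h that were also tested in DMSO, 5324 of 5324 LPS rises, 5219 of 5220 LPS falls, 1730 of 1730 IL-4 rises and 1430 of 1436 IL-4 falls had the same sign in DMSO. The count of IL-4 calls was lower by over 1.5 times without Capmatinib, at 1415, 1265, 2098 and 1654 over the times, and without SGX523 at 30 min, at 1476.

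The largest responses at 4 h, chosen after their values were seen, lay mostly outside promoters. A CRE 75176 bp from the start of Jak2, a cytokine receptor kinase gene, held 5 to 7 normalized reads in UT and 250 to 450 at 4 h of LPS, with a fitted difference of 4.59 (SE 0.42, adjusted p = 1.84e-13). A second CRE near Jak2 (66275 bp) followed with 4.49, and a CRE 38771 bp from Acsl1, a fatty acid activating enzyme gene, with 4.46. Among the lowest LPS differences were -3.39 in an exon of Sgsh, a lysosomal sulfatase gene, from 258 ± 40.2 to 19.5 ± 3.70, and -3.34 in an intron of Foxp1, from 641 ± 102 to 60.9 ± 15.5. After IL-4 a CRE 3526 bp from the ribonuclease gene Ang5 rose by 4.69 (SE 0.47, adjusted p = 3.86e-11), from 0 to 22 in UT to 316 to 513, though 65.9% of its 51-base words occur elsewhere in the genome, which makes its value uncertain, and a second CRE near Ang5 (chr14:43966528-43968242) by 3.87. A CRE 85122 bp from Socs1, an inhibitor of cytokine signalling, rose by 3.70 (SE 0.30, adjusted p = 2.80e-14), from 12 to 38 in UT to 299 to 470 normalized reads. A CRE 40062 bp from Map4k3 fell after IL-4, from 83.9 ± 30.2 to 14.0 ± 9.63 (-2.44, adjusted p = 1.00e-05).

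The central 300 bases of 4 of these CREs are printed as examples of the motifs counted below (mm10, plus strand). They were picked because they hold a match, and the second CRE near Jak2 and those near Acsl1, Sgsh and Foxp1 hold none. Capitals mark matches. The first is chr19:29176502-29176801, with a kappaB match, and was raised by LPS. The next 2, chr16:10700264-10700563 with a STAT6 match and chr14:43967235-43967534 with 2 STAT6 matches, 1 AP-1 match and 1 interferon response element match, were raised by IL-4. The last, chr17:80768005-80768304 with an AP-1 match, was lowered by IL-4.
Jak2 CRE: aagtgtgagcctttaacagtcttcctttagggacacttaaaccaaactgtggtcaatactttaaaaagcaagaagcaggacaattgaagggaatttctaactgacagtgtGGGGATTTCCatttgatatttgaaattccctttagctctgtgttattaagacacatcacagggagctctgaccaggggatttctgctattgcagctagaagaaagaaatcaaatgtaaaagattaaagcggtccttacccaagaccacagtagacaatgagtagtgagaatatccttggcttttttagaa
Socs1 CRE: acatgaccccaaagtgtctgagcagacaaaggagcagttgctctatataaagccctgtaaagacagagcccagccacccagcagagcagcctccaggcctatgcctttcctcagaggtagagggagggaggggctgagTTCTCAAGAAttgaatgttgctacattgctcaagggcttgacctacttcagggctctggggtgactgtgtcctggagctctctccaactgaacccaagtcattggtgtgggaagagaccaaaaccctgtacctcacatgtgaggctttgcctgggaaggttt
Ang5 CRE: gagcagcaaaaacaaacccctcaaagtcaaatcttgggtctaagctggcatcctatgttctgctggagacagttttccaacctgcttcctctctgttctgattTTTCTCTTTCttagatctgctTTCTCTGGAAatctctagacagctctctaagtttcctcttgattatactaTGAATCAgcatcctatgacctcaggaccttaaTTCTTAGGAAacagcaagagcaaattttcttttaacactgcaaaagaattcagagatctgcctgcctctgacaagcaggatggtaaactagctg
Map4k3 CRE: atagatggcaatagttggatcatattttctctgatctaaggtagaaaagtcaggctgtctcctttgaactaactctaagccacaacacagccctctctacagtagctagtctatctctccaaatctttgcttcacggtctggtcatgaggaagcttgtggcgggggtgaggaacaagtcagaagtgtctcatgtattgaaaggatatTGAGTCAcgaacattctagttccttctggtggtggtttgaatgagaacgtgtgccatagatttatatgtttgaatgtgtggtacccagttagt

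Motifs were searched in the central 300 bases of every CRE on both strands. They were kappaB (GGG and TTCC with 3 bases between) and STAT6 (TTC and GAA with 4 bases between). The others were the interferon response element (GAAA and GAAA with 2 bases between), AP-1 (TGANTCA) and PU.1 (GAGGAAGT). Matches of different motifs may overlap, and a match is a description of letters, not of binding. STAT6 letters were in 9.22% of all CREs and in 36.2%, 38.9%, 37.6% and 38.9% of those that rose over the IL-4 times, against 5.78% of those that fell at 4 h. kappaB letters were in 6.81% of all CREs and in 14.9%, 14.8%, 14.1% and 12.3% of those that rose over the LPS times, against 4.73% of those that fell at 4 h. Interferon response element letters were in 5.14% of all CREs and in 5.73%, 8.14%, 14.0% and 13.7% of those that rose over the LPS times. AP-1 letters were in 20.2% of all CREs, in 26.3% of LPS rises at 30 min and in 35.4% of IL-4 falls at 4 h. PU.1 letters were in 9.11% of all CREs, in 7.04% of LPS rises at 4 h and in 11.2% of LPS falls. The STAT6 share among IL-4 rises and the AP-1 share among IL-4 falls were thus the highest of their motifs.

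The size of the response was set beside that of DMSO and of the other inhibitors in the same block of adjacent columns, called run peers here. The inhibitor columns of the table fall into 6 such blocks, with the DMSO columns outside them. AMG208, MK2461, SGX523 and Capmatinib lie in 4 different ones with 9, 9, 9 and 7 peers, and no label says what a block was. At 10342 CREs that LPS raised in DMSO, the median difference between 4 h and UT was 1.84 in DMSO, 0.73 under AMG208, 1.24 under MK2461, 1.55 under SGX523 and 1.42 under Capmatinib. The DMSO values also chose these CREs, so that the DMSO median is high by selection, and nothing is read from its distance to the inhibitors. Only peers with libraries both at 4 h of the stimulus and in UT could be used. In the same order these were 9, 7, 8 and 7 peers after LPS and 8, 7, 9 and 7 after IL-4. Peers of AMG208 spanned 0.45 to 1.22 with a median of 1.00, those of MK2461 0.21 to 1.53 (1.22), those of SGX523 0.70 to 1.73 (1.11), and those of Capmatinib 1.32 to 1.65 (1.42). Each MET inhibitor thus lay within the range of its own peers. The share of these CREs that moved in the DMSO direction was 81.7%, 89.2%, 99.5% and 98.7% in the same order.

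At 7815 CREs that LPS lowered in DMSO (median -1.54), the medians were -1.28, -1.31, -1.10 and -1.09, again within the peers' ranges. At 3913 CREs that IL-4 raised (DMSO 1.66) they were 0.86, 1.19, 1.44 and 1.05, also within them. At 2976 CREs that IL-4 lowered in DMSO, AMG208 stood at -0.93, beyond all 8 of its peers, which spanned -0.91 to -0.17. MK2461, SGX523 and Capmatinib stood at -0.85, -0.83 and -1.22 there, inside the ranges of their peers. These medians are descriptions without a test, since each inhibitor had 1 library at 4 h of IL-4.

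**Figure D4:**
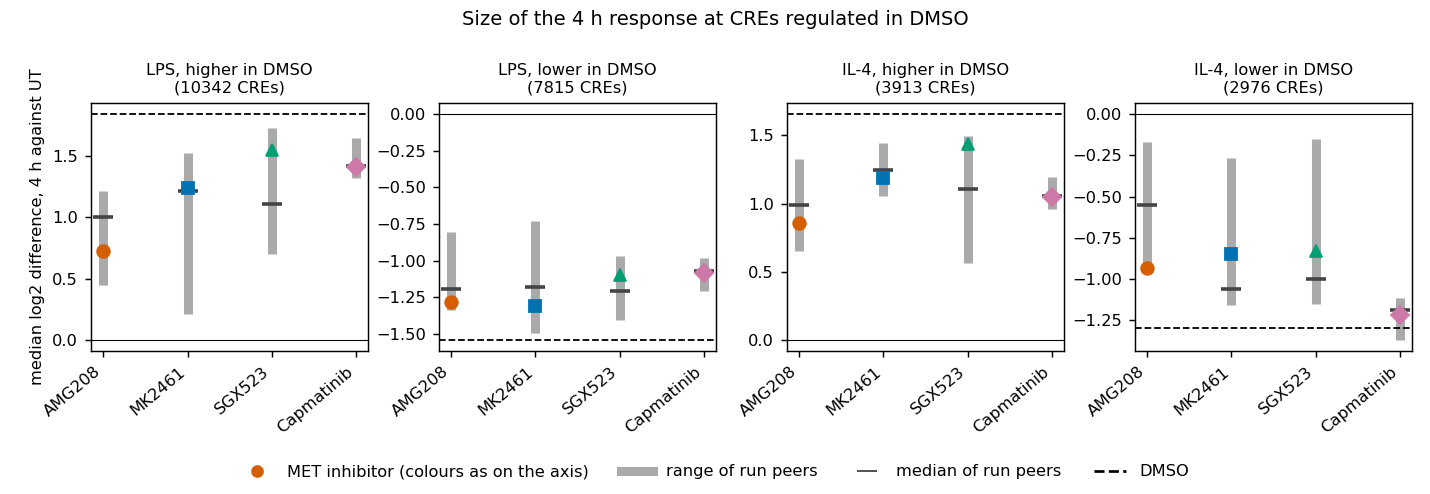
Median log2 difference between 4 h and UT (vertical axes) over the CREs raised or lowered by LPS or IL-4 in DMSO (4 panels, with the number of CREs), for each MET inhibitor (horizontal axes). Coloured symbols are the inhibitors, grey bars the range of their run peers with a dark line at the median, and the dashed line is DMSO. AMG208 at -0.93 lies past the end of its bar in the panel of CREs lowered by IL-4, and the other symbols lie on their bars.

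Against DMSO, each MET inhibitor differed at many CREs, most of them higher, and the shift was largest at CREs with little signal in DMSO. The difference was averaged over UT and the times of a stimulus and called at adjusted p under 0.05 with over 0.5 on the log2 scale. In the LPS course AMG208 had 21207 CREs higher (35.8% of 59163) and 5190 lower (8.77%), 44.6% called in all. MK2461 had 15283 (25.8%) and 934 (1.58%), 27.4% in all, SGX523 14556 (24.6%) and 1663 (2.81%), 27.4% in all, and Capmatinib 16432 (27.8%) and 1371 (2.32%), 30.1% in all. In the IL-4 course AMG208 had 24218 higher (40.9% of 59147) and 2261 lower (3.82%), 44.8% in all. MK2461 had 31068 (52.5%) and 1515 (2.56%), 55.1% in all, SGX523 26605 (45.0%) and 2341 (3.96%), 48.9% in all, and Capmatinib 8396 (14.2%) and 2173 (3.67%), 17.9% in all. In the lowest of 5 equal groups of CREs by DMSO level, with a median of 7.61 normalized reads, the median difference was 1.10 to 1.47 in the LPS course and 0.77 to 1.58 in the IL-4 course. In the highest group, with a median of 275 normalized reads, it was -0.37 to -0.06 and -0.20 to -0.02. The contrast of all MET inhibitor libraries was below that of DMSO, and its part in these differences was not tested. The DMSO columns lie outside the column blocks of the inhibitors, so inhibitor and block cannot be told apart in any comparison with DMSO. With quantile normalization the counts were 2117 higher and 2500 lower for AMG208 in the LPS course, 60 and 27 for MK2461, 229 and 319 for SGX523 and 269 and 476 for Capmatinib. In the IL-4 course they were then 1740 and 2288, 967 and 1537, 2351 and 3285, and 542 and 1348, so that lower CREs made up most calls of all inhibitors except MK2461 after LPS. Leaving out the 4 h libraries left 2570 calls for SGX523 in the LPS course, leaving out DMSO replicate 2 left 6755 for MK2461 and 9488 for Capmatinib, and leaving out UT left 3571 for Capmatinib in the IL-4 course. Without the 2 SGX523 libraries that stood apart, 13907 calls were left for SGX523 in the IL-4 course.

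Set among the 58 inhibitors, whose counts in the LPS course had a median of 21810 and reached 35892, 19 inhibitors had more calls than AMG208, 46 more than MK2461, 45 more than SGX523 and 41 more than Capmatinib. In the IL-4 course, with a median of 26750 and a highest count of 37161, 29 had more than AMG208, 10 more than MK2461, 25 more than SGX523 and 46 more than Capmatinib. These ranks hold for the deposited scaling and were not computed after quantile normalization.

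At the genes of the drug targets, and at Hgf and Mst1r, the differences from DMSO were as follows. The Met promoter was called higher under SGX523 in the LPS course (0.60, adjusted p = 0.0481) and under AMG208 (0.92, adjusted p = 0.00318) and SGX523 (1.04, adjusted p = 0.000773) in the IL-4 course. For Met under MK2461 and Capmatinib the differences were 0.16 and 0.29 in the LPS course and 0.47 and 0.35 in the IL-4 course, not called. In groups 2 and 3 of CREs by DMSO level, with medians of 20.5 and 45.7 normalized reads, the median difference was 0.65 and 0.34 for SGX523 in the LPS course. In the IL-4 course it was 0.96 and 0.47 for SGX523 and 0.91 and 0.41 for AMG208. Whether Met differed from DMSO by more than other CREs of its level was not tested. The Hgf promoter had differences from -0.30 to 0.13 and no call. The Mst1r CRE was called higher in all 8 comparisons, by 1.00 to 2.14, from the low DMSO level given above. The Nqo2 promoter was called lower in the LPS course under MK2461 (-0.55, adjusted p = 0.0258) and SGX523 (-0.69, adjusted p = 0.00594), and the Irak4 promoter was not called under any of the 4. Of the 102 CREs assigned to the HGF and MET signalling list, 37, 29, 20 and 20 were higher than in DMSO in the LPS course under AMG208, MK2461, SGX523 and Capmatinib. Among all CREs tested 35.8%, 25.8%, 24.6% and 27.8% were higher.

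Compared with their run peers, which share the column block, AMG208, MK2461 and Capmatinib had few calls at the adjusted threshold. The libraries of AMG208, MK2461, SGX523 and Capmatinib had medians of 850301, 1333337, 1692625 and 3529856 reads, and their peers 900177, 1310196, 2838087 and 3621860. SGX523 was thus shallower than its peers, and its median contrast was 13.6 against 18.9. After LPS 4 CREs were called for AMG208 (0.00676% of 59152), 0 for MK2461 (0.0% of 59134), 1 for SGX523 (0.00169% of 59171) and 2 for Capmatinib (0.00338% of 59097), all 7 of them lower. At an unadjusted p under 0.05 there were 2510 (4.24%), 899 (1.52%), 958 (1.62%) and 2796 (4.73%) after LPS. The same limit gave 4252 (7.19%), 1412 (2.39%), 14524 (24.6%) and 1713 (2.93%) after IL-4. With no difference at any CRE, the expected share is 0.05. After IL-4 11 were called for AMG208 (0.0186%), 1 for MK2461 (0.00169%), 47 for SGX523 (0.0795%, 5 higher or 0.00845%, and 42 lower) and 2 for Capmatinib (0.00342%). The SGX523 count after IL-4 was unstable, with 2554 (1986 higher and 568 lower) without the 1 h libraries, 1999 (1503 higher and 496 lower) without 4 h, 174 without 30 min, 1 without 2 h and 899 with quantile normalization, so neither its size nor its main direction was settled. In UT 12, 3, 4 and 8 were called (0.0203%, 0.00508%, 0.00677% and 0.0141%). The difference from peers itself differed between LPS and IL-4 at 0 CREs for AMG208 (0.0%), 0 for MK2461 (0.0%), 42 for SGX523 (0.071%) and 8 for Capmatinib (0.0135%). Over the 58 inhibitors compared in the same way, 31 had 0 calls after LPS and 31 after IL-4, and the highest counts were 24820 and 28382.

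The intervals show what these comparisons could resolve. The median half-width of the 95% interval of a difference from peers was 0.74 on the log2 scale for AMG208 after LPS, 0.64 for MK2461, 0.59 for SGX523 and 0.42 for Capmatinib. The whole interval lay within 1 in either direction at 52.6%, 72.5%, 81.7% and 94.3% of CREs after LPS, and at 60.3%, 61.5%, 62.5% and 96.9% after IL-4. A difference of 1 on the log2 scale was therefore outside the interval at most CREs for each inhibitor, and smaller ones were often not.

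Met and Hgf were not called against peers for any of the 4 inhibitors. For Met the difference after LPS was -0.11 (95% interval -0.67 to 0.45) under AMG208, 0.10 (-0.46 to 0.67) under MK2461, 0.31 (-0.24 to 0.87) under SGX523 and -0.12 (-0.43 to 0.20) under Capmatinib. After IL-4 it was 0.12, 0.05, 0.81 and 0.00 for Met. The SGX523 value had an interval of 0.24 to 1.38 and an adjusted p of 0.0964. For Hgf the differences lay between -0.34 and 0.08. For Nqo2 under SGX523 the difference after LPS was -0.40 (-0.86 to 0.05), and for Irak4 under MK2461 it was -0.07 (-0.50 to 0.37). No CRE assigned to any gene list was called against peers in any of the 4 inhibitors, and the medians over the lists lay between -0.21 and 0.29.

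Of the 4 CREs called for AMG208 after LPS, 3 had a library at 0, as had 7 of its 11 after IL-4 and 28 of the 47 of SGX523 after IL-4. For AMG208 after LPS, a CRE in an exon of Prrt3 (chr6:113493536-113495453) held 0, 49, 0 and 19 normalized reads at 30 min, 1 h, 2 h and 4 h, and its 40 peer libraries 18 to 128 with a median of 66 (-2.39, adjusted p = 0.00211). An intronic CRE of Stx8, a vesicle fusion gene, held 36, 27, 0 and 0, against 21 to 132 in peers (-2.19, adjusted p = 0.0278). Both calls were lost under quantile normalization (adjusted p = 0.167 and 0.578). That of Prrt3 was also lost without the 30 min or the 2 h libraries (adjusted p = 0.0556 and 0.0554), and that of Stx8 without the 2 h or the 4 h libraries (adjusted p = 0.229 and 0.153). A single read was worth 5.45 or more in AMG208 libraries.

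For AMG208 after IL-4, an intronic CRE of Rbpms2 (chr9:65635158-65638050), an RNA-binding protein gene, held 13, 25, 26 and 24, below each of its 35 peer libraries, which spanned 31 to 161 (-1.61, adjusted p = 0.0262). The call was lost with quantile normalization (adjusted p = 0.324) and with peers of all blocks (-0.95, adjusted p = 1.00), and without the 30 min or the 1 h libraries (adjusted p = 0.285 and 0.064). An intronic CRE of Sdcbp2 held 0, 63, 77 and 40 against 57 to 158 (-1.62, adjusted p = 0.00409), and was not called without the 30 min library (-0.75, adjusted p = 0.85). A CRE 42526 bp from Usp44 held 13, 0, 17 and 0 against 0 to 244 (-2.72, adjusted p = 0.00325), a call lost without the 30 min libraries (adjusted p = 0.106). No CRE was called as higher for AMG208. Higher CREs after LPS were therefore named by p among those with 1 sign at every time and a mean of at least 30. The smallest p of these was that of a CRE in an exon of the drug efflux pump gene Abcb1b. It held 253, 229, 259 and 223 against a peer median of 144 (0.81, adjusted p = 0.526).

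MK2461 had no named call. The CREs named here had 1 sign at every time and a mean of at least 30. Among those of them with the smallest unadjusted p after LPS were the promoter of Gm13288 (1.89, adjusted p = 1.0) and a CRE 100961 bp from Prex1, a RAC activator gene (-1.51, adjusted p = 1.0). After IL-4 the promoter of the Mediator subunit gene Med6 held 184, 274, 165 and 179 against 39 to 174 in peers (0.81, adjusted p = 1.00), and a CRE 50456 bp from Prkar2b, a protein kinase A subunit gene, had -1.30 (adjusted p = 0.886).

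For SGX523 after LPS, a CRE 408741 bp from Gpm6a held 0, 0, 133 and 0 normalized reads at 30 min, 1 h and the pair at 4 h, and its peers 0 to 624 (-3.58, adjusted p = 6.49e-05). The call was lost without the 30 min or the 1 h library and with peers of all blocks. After IL-4, CREs near Zfp715 (179, 43, 129 and 33 against a peer median of 17, 1.86, adjusted p = 0.048) and Gpr135 (145, 62, 77 and 70 against 27.5, 1.43, adjusted p = 0.0399) were called higher. The promoter of Tcte3, a dynein light chain gene, held 85, 0, 0 and 0 against a peer median of 196 (-3.84, adjusted p = 0.00104), and CREs near Cep83 (-1.55, adjusted p = 0.0376) and Pnpt1 (-1.52, adjusted p = 0.0376) were called lower. Without both the 30 min and the 2 h libraries of SGX523, chosen after their depth and contrast were seen, 2 calls were left of 47. Zfp715 then stood at 0.73, Gpr135 at 1.09, Cep83 at -0.88 and Pnpt1 at -0.96, each with an adjusted p of 1.00, while Tcte3 was still called. Leaving out the 2 h libraries alone ended the calls of these 4 CREs (adjusted p = 0.386 each), and peers of all blocks that of Tcte3 (adjusted p = 0.883).

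Capmatinib had the highest median depth of the 4. Its CREs without a call were named by the smallest p. Those considered had 1 sign at every time, a mean of at least 30 and a difference over 0.5. Of these, the CRE upstream of Met named above came first among those higher than peers after LPS (0.54, SE 0.13, adjusted p = 0.723, not called). Its place among all CREs is not given. Intronic CREs of Zranb3 (0.71) and Dock10 (0.91) followed, neither called. The lower CREs named by the same rule, the promoter of Gm13288 (-1.33, adjusted p = 0.0986), the promoter of Fam57a (-0.84, adjusted p = 0.723) and a CRE in an exon of Cish (-0.63, adjusted p = 0.934), were not called either. The 2 CREs that were called for Capmatinib after LPS did not keep 1 sign at every time. After IL-4 a CRE in an exon of Vps45, a vesicle transport gene, held 12, 15, 5 and 10 against 4 to 825 with a median of 34 (-1.37, adjusted p = 0.00211), and the call was lost with quantile normalization (-1.05, adjusted p = 0.128) and without the 30 min or the 2 h libraries (adjusted p = 0.407 and 1.00).

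Sequence copies were counted because a read that fits several places cannot be placed with certainty. Of the 67 CREs called against peers after LPS or IL-4, 19 (28.4%) had over 50% of their 51-base words elsewhere in the genome as well, compared with 4 of 296 (1.35%) CREs taken at every 200th line of the table. The share of repeated words was 98.4% for Tcte3, 89.9% for Gpm6a, 75.0% for Usp44 and 96.9% for Gm13288, named above without a call, and 0.0% for Prrt3, Stx8, Gpr135 and Sdcbp2. Values of Tcte3, Gpm6a, Usp44 and Gm13288 are therefore uncertain.

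**Figure D5:**
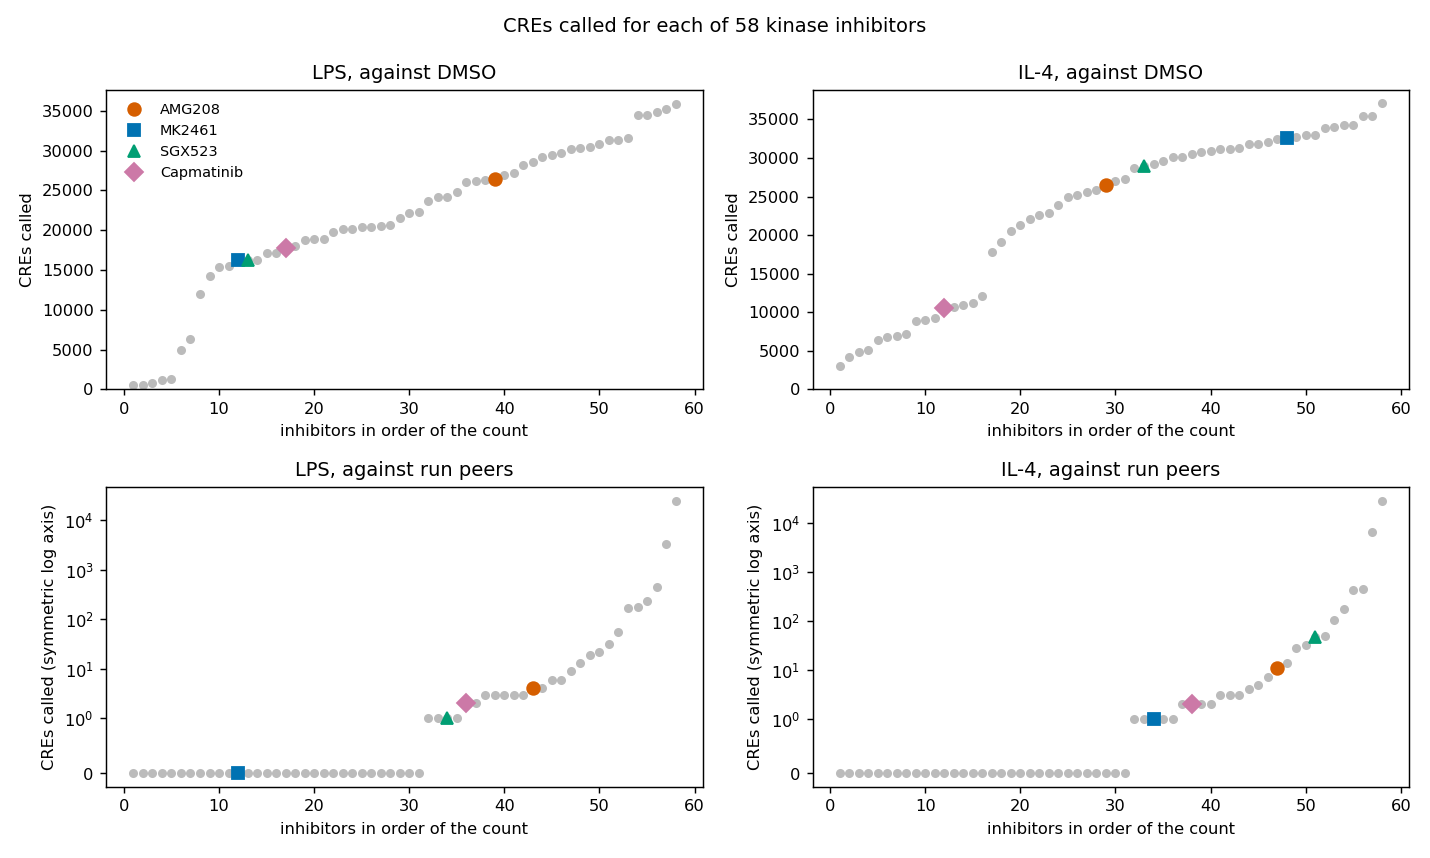
Number of CREs called for each of 58 kinase inhibitors against DMSO (top, linear axis) and against run peers (bottom, symmetric log axis), after LPS (left) and IL-4 (right), with the inhibitors in order of their count along the horizontal axis. Grey points are the other inhibitors and coloured symbols the 4 MET inhibitors. Against peers the coloured symbols lie at 4, 0, 1 and 2 after LPS and at 11, 1, 47 and 2 after IL-4, while the highest points are 24820 and 28382.

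The differences from peers of 1 MET inhibitor were set beside those of the others as a description, across CREs, which share libraries and depth and are not replicates. For the 6 pairs Pearson's r lay between -0.07 and 0.09 after LPS and between -0.29 and 0.16 after IL-4. For 1400 pairs of inhibitors from different blocks the 5th and 95th percentiles were -0.31 and 0.31 after LPS and -0.26 and 0.26 after IL-4. The lowest value was that of SGX523 with Capmatinib after IL-4.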

How the data were processed

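H3K27ac ChIP-seq was done on BMDMs treated with 1 of 58 inhibitors or DMSO, and the libraries were grouped by compound, stimulus and time as labelled. The authors trimmed reads to 51 bases, mapped them to mm10 (ShortStack, with Bowtie and SAMtools in the submitters' processing notes, versions not given in the sources used here), counted them around ATAC-seq summits and scaled the counts by peaks that did not vary. The deposited values are a score, normalized read numbers rounded to whole numbers, so that count models were not used. All columns of the table were mapped to a sample.

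Values were analysed as log2(value + 5) with limma 3.58.1 in R 4.3.3, for CREs with a mean of at least 10, with Benjamini-Hochberg adjustment and two-sided tests. The comparison with DMSO had time as a factor. In that with run peers, values were centred per time and averaged over the times, so that each inhibitor gave 1 value. Both used adjusted p under 0.05 and a log2 difference over 0.5 as limits. For the comparison with DMSO the libraries of all compounds shared 1 estimate of the spread. The fit over the 37 MET inhibitor libraries, with limits of 0.01 and 1, was added after the data were seen. It had a term for each inhibitor as well as for each stimulus and time. The replicates are different inhibitors there and in the comparison with run peers, where the tested inhibitor gave 1 value. Elsewhere they are libraries of 1 course. The p-values thus measure the spread between these samples, which may be technical. Reads per library were estimated from the step between neighbouring values. The fits were tested on simulated data in which all libraries had the same read value and no difference in contrast. That test therefore does not cover the differences in depth and contrast between the real libraries. The members, gene lists and tests were chosen with earlier results of these data known.

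Named were the CREs at Met, Hgf, Mst1, Mst1r, Irak4 and Nqo2, and 2 control loci. At each gene this was the promoter, or the closest within 50 kb of the CREs assigned to it by the nearest start. Per inhibitor and stimulus, up to 3 higher and 3 lower CREs called against run peers were named. These had 1 sign at every time and a mean of at least 30. Where too few were called, those with the smallest p were named, given as not called. Alternatives were quantile normalization, a pseudocount of 1, no filter, peers of all blocks, a replicate block and leaving out libraries.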

Additional observations from a re-analysis of the deposited data

Results flagged for a closer look

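At the Met promoter, MK2461 stood apart from the other MET inhibitors at 1 h of IL-4, with 94 normalized reads against 38 to 46. At the CRE labelled Fpr3, AMG208 stood apart at 2 h of IL-4, with 128 against 51 to 62. In both cases the gap to the next library was 0.857 of the range over the 4 inhibitors. Of 64 groups of 4 libraries looked at in this way 2 held such a library, and chance gives about 5%.

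The difference from run peers differed between LPS and IL-4 at 42 CREs for SGX523, 3 of them higher and 39 lower after LPS, and at 8 CREs for Capmatinib, 3 higher and 5 lower. Without the SGX523 libraries of 30 min and 2 h of IL-4 the 42 became 0.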

How the results depend on the processing

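Directions at named CREs were never reversed in the alternatives run. In the response to stimuli 277 of the recomputed values at named CREs stayed on their side of the limits and 11 lost the call, and against run peers 353 stayed, 35 lost the call and 8 gained it. The causes of the changes below were not tested, and each inhibitor had 1 library per condition, with the lowest median depth in AMG208 and MK2461 and the fewest reads in a single library of SGX523, which limits all comparisons of single inhibitors.

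With quantile normalization the calls against DMSO were 4617 for AMG208, 87 for MK2461, 548 for SGX523 and 745 for Capmatinib in the LPS course, and 4028, 2504, 5636 and 1890 in the IL-4 course. Against run peers they were 1 for AMG208 after LPS, 5, 0, 899 and 0 in order after IL-4, and 5 for MK2461, 1 for SGX523 and 15 for Capmatinib in UT. The LPS minus IL-4 counts were 14 for SGX523 and 1 for Capmatinib, and IL-4 regulated 6038 CREs in DMSO against 11611. With a pseudocount of 1, the run peer counts were 66 for AMG208 and 4 for Capmatinib after LPS, 172 for AMG208, 3 for MK2461 and 281 for SGX523 after IL-4, and 145, 39 and 12 for AMG208, MK2461 and SGX523 in UT. The LPS minus IL-4 counts were then 10 for AMG208 and 5 for Capmatinib, which also had 5 with no filter. With peers of all blocks the counts were 164, 1, 0 and 0 in order after LPS, 20, 0, 11 and 0 after IL-4, 92, 291, 0 and 0 in UT, and 50 for AMG208, 0 for SGX523 and 0 for Capmatinib for LPS minus IL-4. Without both SGX523 libraries that stood apart, chosen after seeing the data, the SGX523 counts in the IL-4 course were 13907 against DMSO and 2 against peers, and 0 for LPS minus IL-4.

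Leaving out 1 library, the libraries of 1 time or 1 DMSO replicate at every time gave, against DMSO, 6755 to 16280 calls for MK2461, 2570 to 17480 for SGX523 and 9488 to 18001 for Capmatinib in the LPS course, and 3571 to 9649 for Capmatinib in the IL-4 course. Against run peers it gave 5 to 14 for AMG208, 0 to 1 for SGX523 and 1 to 3 for Capmatinib after LPS, and 4 to 38, 0 to 1, 1 to 2554 and 1 to 3 in order after IL-4, the lowest SGX523 count without 2 h and the highest without 1 h. For Capmatinib in UT it gave 766 to 5134, with a single library assumed to vary like the peers. For LPS minus IL-4 it gave 2 to 4, 0 to 1, 0 to 68 and 2 to 7. Leaving out 1 inhibitor gave 1415 to 2787, 1265 to 2491, 2098 to 4013 and 1654 to 3121 IL-4 calls over the times, each lowest without Capmatinib, and 1476 at 30 min without SGX523.

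The replicate numbers of the 2 DMSO libraries did not pair the conditions, since 36 correlations of their deviations ran from -0.0873 to 0.0664. A fit with the number as a replicate block gave 26364, 16162, 16163 and 17761 calls against DMSO in the LPS course, and 26452, 32564, 28925 and 10502 in the IL-4 course. The regulated CREs in DMSO numbered 27066 for LPS and 11611 for IL-4 with the block. Leaving out 1 DMSO replicate at every time leaves no residual degrees of freedom for the regulated CREs, so no value was computed there.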
